A study of Danio rerio with 10 samples.

Results

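The genes described here are those of the glial side of glutamate clearance: the glutamine synthetase gene *glula* (ENSDARG00000099776) and the glutamate transporter genes *slc1a2b* (ENSDARG00000102453) and *slc1a3b* (ENSDARG00000043148). They were chosen by identifier, for what they encode, and are 3 of the 31388 features in the deposited count table. Glutamate released by neurons is taken up mainly by astroglia through sodium-driven transporters of the SLC1 family, of which SLC1A2 (GLT-1) and SLC1A3 (GLAST) are the main glial forms in mammals. Inside the cell, glutamine synthetase joins glutamate with ammonia to give glutamine, which can be handed back to neurons. In mammals the enzyme is a classical astrocyte marker that is also present in oligodendrocytes, and SLC1A2 and SLC1A3 are made by astrocytes and, to differing extents, by the oligodendrocyte lineage. The zebrafish spinal cord has radial glia in the place of most astrocytes, and many of its genes exist as paralogue pairs marked a and b.

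RNA was sequenced from 2 populations FACsorted from the spinal cord of adult zebrafish. GFP-positive cells of the line Tg(*olig2*:eGFP), in which the *olig2* promoter drives GFP, are called OPCs, and those of Tg(*mbp*:eGFP), with the *mbp* promoter, are called OLs. Each population had 5 biological replicates of 2000 cells (OPC1 to OPC5 and OL1 to OL5), and up to 5 cords were pooled in a dissection. No treatment or mutation was applied, and which library came from which fish is not given in the labels. The *olig2*:GFP signal is also found in some ventral radial glia, which the OPC gate could hold. The OPC suspension passed a 20 µm strainer and the OL suspension a 35 µm strainer, and line, strainer and population cannot be told apart.

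The libraries held 11072526 to 11960408 counts in OPCs and 13937725 to 20225093 in OLs, and division by size factors that DESeq2 takes as medians of ratios (0.892 to 1.39) gave the normalized counts used below. Of the 12292 features that passed edgeR's filter on low counts, edgeR's quasi-likelihood test called 1103 (8.97%) as higher in OPCs and 365 (2.97%) as higher in OLs, with Benjamini-Hochberg adjusted p-values below 0.05. For 12.6% of them the ranges of the populations were separate. The split was 1811 to 118 when library size alone set the scale, and 1273 to 195 when the total of features under 1% of the counts did. These scalings moved the median over all log2 fold changes from 0.05 to 0.36 and 0.18. The summed normalized counts of 9 myelin genes were 3756630 to 4162220 in OLs, but the OPC libraries also held 2106640 to 2613940. Of these 9 genes, 4 were higher in OLs, 0 were higher in OPCs and 5 were not called. Their median log2 fold change was -0.23, and 3 of them had a positive value. Of 4 tested genes of the oligodendrocyte lineage, *olig1*, *olig2* and *gpr17* were higher in OPCs and *sox10* was not called. The OPC marker gene *pdgfra* ranged from 0 to 34.9 normalized counts in OPCs and had at most 0.990 in OLs. The gates rest on *olig2* and *mbp* reporters, so the levels of these genes are no separate check of the populations. The lineage count is a description, since a gene with few reads in OLs could pass the filter through the OPC libraries alone.

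*glula* was among the most abundant transcripts of both populations, and no difference between them was detected. It lies on GRCz10 chromosome 2 from 19339343 to 19343286 on the plus strand, with 5 exon blocks of 2176 bases in all, and overlaps no other feature. Its normalized count was 110862 in OPC1, 77902 in OPC2, 99024.5 in OPC3, 90125 in OPC4 and 92578 in OPC5, a mean of 94098 ± 12101 (SD, n = 5). In the OLs it was 115992 in OL1, 128838 in OL2, 102450 in OL3, 114826 in OL4 and 76032 in OL5, a mean of 107628 ± 19980 (SD, n = 5). The populations overlapped widely: OL5 was the lowest of the 10 libraries and OL2 the highest, and all 5 OPC libraries lay within the range of the OLs. The log2 fold change of OPCs over OLs was -0.19 (SE 0.16, 95% interval -0.53 to 0.14), with an adjusted p of 0.521 in edgeR's quasi-likelihood test. Its sign followed the scaling, since library size alone gave 0.12 (adjusted p = 0.642, edgeR), and under both scalings *glula* lay below the median of all tested features.

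Per kilobase of exon, *glula* ranked 9th of the 23508 features with a count in OPCs and 10th of 22194 in OLs. The gene alone took 0.662% to 0.902% of the counts of an OPC library and 0.520% to 0.870% of those of an OL library. The spread between libraries was small, with a coefficient of variation of 12.9% in OPCs and 18.6% in OLs.

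*slc1a2b*, the zebrafish counterpart of the GLT-1 gene, was higher in OPCs in every library and fell to few counts in OLs. It lies on GRCz10 chromosome 25 from 36796114 to 36837199 on the plus strand, with 11 exon blocks of 4316 bases, and overlaps no other feature. The normalized count was 723 in OPC1, 1347 in OPC2, 1102 in OPC3, 1502 in OPC4 and 2422 in OPC5, a mean of 1419 ± 633 (SD, n = 5). In the OLs it was 144 in OL1, 0.855 in OL2 (1 read), 62.6 in OL3, 34.6 in OL4 and 23.5 in OL5, a mean of 53.2 ± 55.6 (SD, n = 5). The lowest OPC library stood well above the highest OL library, and the OLs differed widely among themselves, from a single read to 201 reads. The fitted difference was 26.4-fold, a log2 fold change of 4.72 (SE 0.76, 95% interval 3.08 to 6.36) with an adjusted p of 0.000872 (edgeR's quasi-likelihood test). OL1 carried much of the OL level: leaving it out gave 5.56 (adjusted p = 0.000473, edgeR), against 4.40 to 4.89 with any other library left out, and limma voom with quality weights gave 5.85 (adjusted p = 0.000458). In bulk libraries such as these, fewer cells with the transcript and less transcript per cell cannot be told apart.

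The 2 tested genes thus stood at very different heights within one library. In OPCs, *slc1a2b* had 329 ± 147 normalized counts per kilobase (SD, n = 5), where 8.68% of the features with a count were higher, and in OLs it had 12.3 ± 12.9, where 44.4% were higher. On the same scale *glula* had 43244 ± 5561 in OPCs and 49461 ± 9182 in OLs.

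*slc1a3b*, a counterpart of the GLAST gene, was at or near 0 in both populations. It lies on GRCz10 chromosome 10 from 36611214 to 36648728 on the minus strand, with 10 exon blocks of 5608 bases. OPC2 and OPC4 had 1 read each, OL5 had 8 reads, and the other 7 libraries had 0. Apart from OL5, no library exceeded 3 reads, the limit that a count of 0 allows in counting error, so a lower level was not detectable at this depth and no fold is given. The gene did not pass the filter on low counts and was therefore not tested. It overlaps ENSDARG00000054755, a feature with the symbol *ALOX5AP* in the gene table, which had at most 17 reads in a library and 6 in OL5. Overlap in this text is between spans from the first to the last base of a feature, introns included, and overlap of exons was not examined. The library preparation used does not mark strand, so reads of the 2 features cannot be told apart where their exons overlap, if they do.

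**Figure D1:**
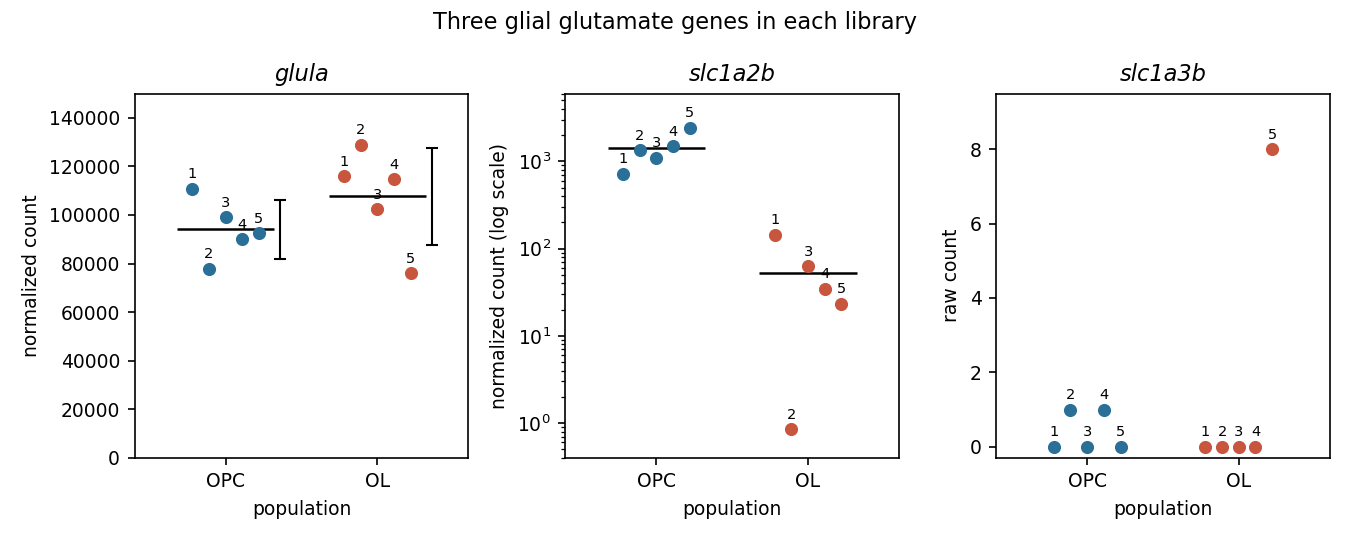
Level of *glula* (normalized counts, linear axis), *slc1a2b* (normalized counts, log axis) and *slc1a3b* (raw counts, linear axis) in the 5 OPC and 5 OL libraries. Each point is a library with its replicate number, horizontal lines are means and the bars beside *glula* are 1 SD; *glula* overlaps between the populations, *slc1a2b* lies between 723 and 2422 in OPCs and between 0.855 and 144 in OLs, and *slc1a3b* exceeds 1 read in OL5 alone.

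Comparing 2 genes that both have reads within a library needs no scaling between libraries. The ratio of *glula* to *slc1a2b* in counts per kilobase, with 0.5 added to each count, was 304 in OPC1, 115 in OPC2, 178 in OPC3, 119 in OPC4 and 75.8 in OPC5. It was 1591 in OL1, 199195 in OL2, 3217 in OL3, 6483 in OL4 and 6298 in OL5, and the value of OL2 rests on the single *slc1a2b* read of that library. The lowest OL ratio was thus above the highest OPC ratio. On the log2 scale the ratio was 7.14 ± 0.76 in OPCs against 13.03 ± 2.69 in OLs (SD, n = 5), a difference of -5.89 (exact permutation test over libraries, two-sided, p = 0.00794, the smallest that 5 against 5 allow, adjusted p = 0.0119 over 3 ratios). The log2 ratio of *slc1a2b* to *slc1a3b* was 5.70 higher in OPCs (same exact test, p = 0.00794, adjusted p = 0.0119), and that of *glula* to *slc1a3b* differed by -0.19 (same exact test, p = 0.810, adjusted p = 0.810). The latter 2 ratios have a gene at or near 0 in the denominator and depend on the 0.5 added. They largely restate the raw count of the other gene, library depth included, so no conclusion is drawn from their tests.

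The paralogues of these genes did not share one pattern. *glulb*, the other abundant glutamine synthetase gene, had 8123 normalized counts in OPC1, 13731 in OPC2, 37128 in OPC3, 36428 in OPC4 and 8091 in OPC5. In OLs it ranged from 14938 in OL2 to 27800 in OL4. OPC3 and OPC4 were above all OLs and the other 3 OPC libraries were below all of them, and the log2 fold change was -0.07 (SE 0.42, adjusted p = 0.950, edgeR's quasi-likelihood test). *glula* made up 76.0% to 94.6% (median 87.9%) of the summed level per kilobase of the 2 genes in OPCs and 84.1% to 91.7% (median 85.2%) in OLs. How the authors counted reads that map to both paralogues is not given in the sources used here, so the split between them is uncertain. *glulc*, a further glutamine synthetase gene, had 2 reads in OL3 and 0 in the other libraries.

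*slc1a3a*, the second GLAST paralogue, was readily detected and went in the opposite direction to *slc1a2b*. Its normalized count was 2109 in OPC1, 1654 in OPC2, 1870 in OPC3, 1415 in OPC4 and 1847 in OPC5, and 3181 in OL1, 3321 in OL2, 3850 in OL3, 3913 in OL4 and 2694 in OL5. The populations did not overlap, and the log2 fold change of OPCs over OLs was -0.93 (SE 0.15, adjusted p = 0.000972, edgeR). *slc1a2a*, the second GLT-1 paralogue, had 0 reads in every library. *slc1a1*, whose mammalian counterpart EAAC1 is known as a neuronal glutamate transporter, had 73.4, 386, 398, 424 and 155 normalized counts in OPC1 to OPC5 and 1 to 6 reads in each OL library (adjusted p = 2.83e-05, edgeR). The groups did not overlap for *slc1a1*, which itself overlaps another feature of the table.

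**Figure D2:**
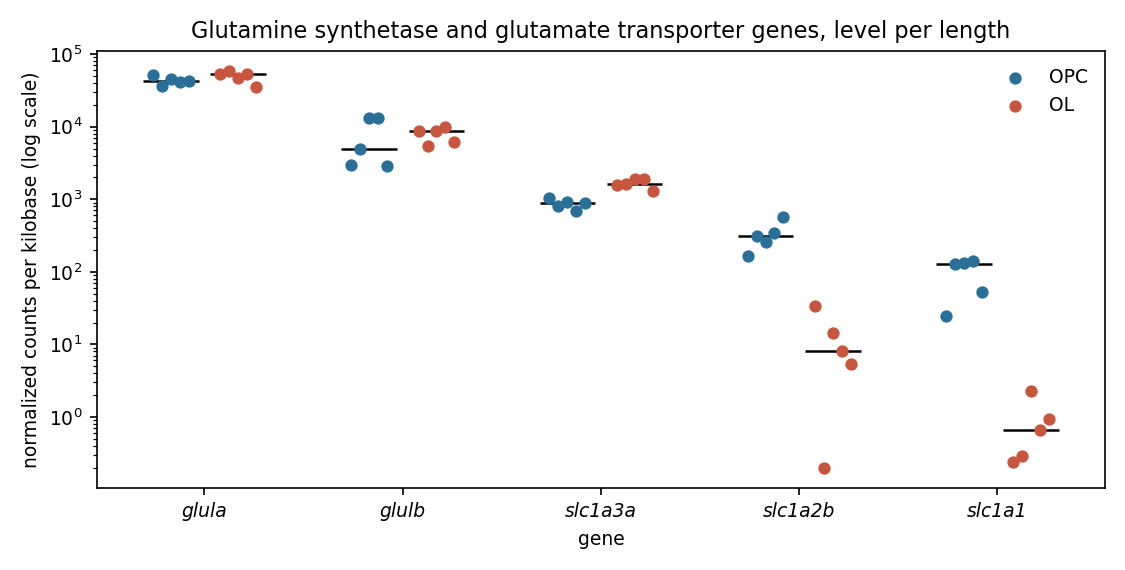
Normalized counts per kilobase (log axis) of *glula*, *glulb*, *slc1a3a*, *slc1a2b* and *slc1a1* in each OPC and OL library; points are libraries and black lines are medians. The glutamine synthetase genes overlap between the populations, *slc1a3a* is higher in every OL library, and *slc1a2b* and *slc1a1* are higher in every OPC library.

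The make-up of the transporter transcripts is given as a description, chosen after the values were seen. In OPCs, *slc1a2b* made up 13.7% to 37.1% (median 25.0%) of the summed level per kilobase of the *slc1a1*, *slc1a2* and *slc1a3* genes, *slc1a1* 2.02% to 12.1% and *slc1a3a* 58.5% to 84.3%. In OLs, *slc1a3a* made up 97.9% to 99.97% and *slc1a2b* 0.0122% to 2.11%. The sum itself was 1181 to 1514 normalized counts per kilobase in OPCs (median 1249) and 1322 to 1917 in OLs (median 1620). The ranges of the summed level overlapped only because OPC5, at 1514, was above OL5, at 1322. Those of the *slc1a2b*, *slc1a1* and *slc1a3a* shares did not overlap. Among the OPC libraries, OPC1 had the lowest share of *slc1a2b* and OPC5 the highest.

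**Figure D3:**
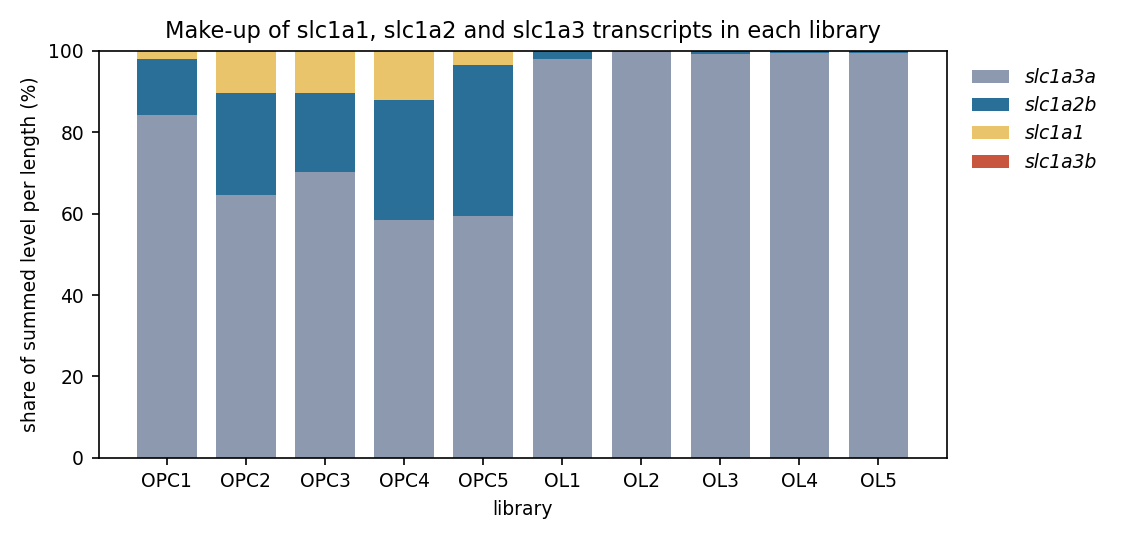
Share (%) of *slc1a3a*, *slc1a2b*, *slc1a1* and *slc1a3b* in the summed normalized counts per kilobase of the *slc1a1*, *slc1a2* and *slc1a3* genes, with a stacked bar for each library. The *slc1a2b* share is 13.7% to 37.1% in OPCs and at most 2.11% in OLs, where *slc1a3a* fills nearly the whole bar, and *slc1a3b* is too small to be seen.

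Of the 31 further matched genes listed for the handling of glutamate or glutamine, 17 were tested. Of these, 2 were higher in OPCs, 2 were higher in OLs and 13 were not called. Their median log2 fold change was -0.07 beside 0.05 for all tested features. The list also held genes for transporters of GABA, glycine and neutral amino acids, so its counts are not those of glutamate genes alone. The 2 of 17 in either direction, 11.8%, stand beside the 8.97% (OPCs) and 2.97% (OLs) over all tested features, and at 2 genes neither is read as particular to the list. With few reads in OLs, *slc1a1* could pass the filter through the OPC libraries alone, so the OPC count is a description. The genes higher in OPCs were *slc1a1* and *slc1a4*, which encodes a neutral amino acid transporter and averaged 2151 ± 811 normalized counts over OPCs and 602 ± 165 over OLs (SD, n = 5; log2 fold change 1.84, adjusted p = 0.000764, edgeR). Those higher in OLs were *slc1a3a* and *got2b*, a mitochondrial aspartate aminotransferase gene, at 824 ± 123 against 1195 ± 99.2 (SD, n = 5; log2 fold change -0.54, adjusted p = 0.0306, edgeR). The *got2b* call was lost with library size alone (log2 fold change -0.23, adjusted p = 0.258) and with the total of features under 1% of the counts (-0.41, adjusted p = 0.0807, both edgeR). It was also lost without OPC1, OPC3, OL1, OL2, OL3 or OL4, where the adjusted p was at most 0.0627 (edgeR) while the log2 fold change over all libraries left out stayed between -0.60 and -0.46. *slc38a2*, a glutamine transporter, was the most abundant gene of the list, at 25303 ± 7187 in OPCs against 30351 ± 7158 in OLs (SD, n = 5; log2 fold change -0.26, adjusted p = 0.552, edgeR). Among those not called, *glud1a* and *glud1b*, the glutamate dehydrogenase genes, had log2 fold changes of 0.27 and -0.21, and the GABA transporter gene *slc6a1b* had -0.66 (adjusted p = 0.0581, edgeR). In all, 11 of the 31 genes had at most 3 reads in every library, and 4 of these had 0 throughout, namely *slc1a2a*, *gls2b*, *slc38a5b* and the cystine-glutamate exchanger gene *slc7a11*.

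Receptors for glutamate were described beside the transporters. Of 39 matched receptor genes, 14 were tested, 10 were higher in OPCs, 0 were higher in OLs and 4 were not called, beside the 8.97% (OPCs) and 2.97% (OLs) of all tested features. A receptor gene with few reads in OLs could pass the filter through the OPC libraries alone, so this count is a description. All 5 tested genes for AMPA receptor subunits, which form fast glutamate-gated channels, were higher in OPCs, as were 2 of 3 for NMDA receptors, 2 of 3 for kainate receptors and 1 of 3 for the G-protein-coupled metabotropic receptors. *gria2b*, an AMPA subunit gene, had 379, 698, 807, 1528 and 1209 reads in OPC1 to OPC5 and at most 4 in an OL library (adjusted p = 1.68e-06, edgeR). *grin1a*, which encodes the obligatory NMDA subunit, had 107, 245, 325, 415 and 811 reads in OPC1 to OPC5 and at most 1 in an OL library (adjusted p = 4.91e-06, edgeR). No OL library reached the OPC range of either gene.

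The other receptor genes higher in OPCs were expressed at lower levels. *gria4a* had 336 ± 201 normalized counts in OPCs and 7.42 ± 4.85 in OLs, *grin1b* had 171 ± 92.3 and 4.46 ± 3.81, and *gria3a* had 212 ± 65.9 and 25.9 ± 10.4 (SD, n = 5 each). *gria2a*, *gria1b*, *grik4* and *grm5a* had means of 83.9, 72.4, 48.7 and 32.7 in OPCs, with at most 4 reads in an OL library, and *grik3* had 60.6 ± 51.9 in OPCs and 8.18 ± 7.32 in OLs (adjusted p = 0.0447, edgeR). Of the metabotropic genes, *grm7* overlapped between the populations, at 66.4 ± 45.0 in OPCs against 80.6 ± 23.9 in OLs (SD, n = 5; adjusted p = 0.786, edgeR), and *grm4*, which did not pass the filter, had 4 to 164 reads in OPCs and at most 1 in OLs. *gria2b*, *gria2a*, *gria3a*, *gria4a* and *grm4* each overlap at least 1 other feature of the table. With an OL library left out, the filter kept 21 receptor genes and 16 or 17 of them were called, whichever of OL1 to OL5 it was. With an OPC library left out, it kept 14 to 18 and 9 to 14 of them were called. Without a filter 20 were called, so the count moved with the genes that the filter kept.

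**Figure D4:**
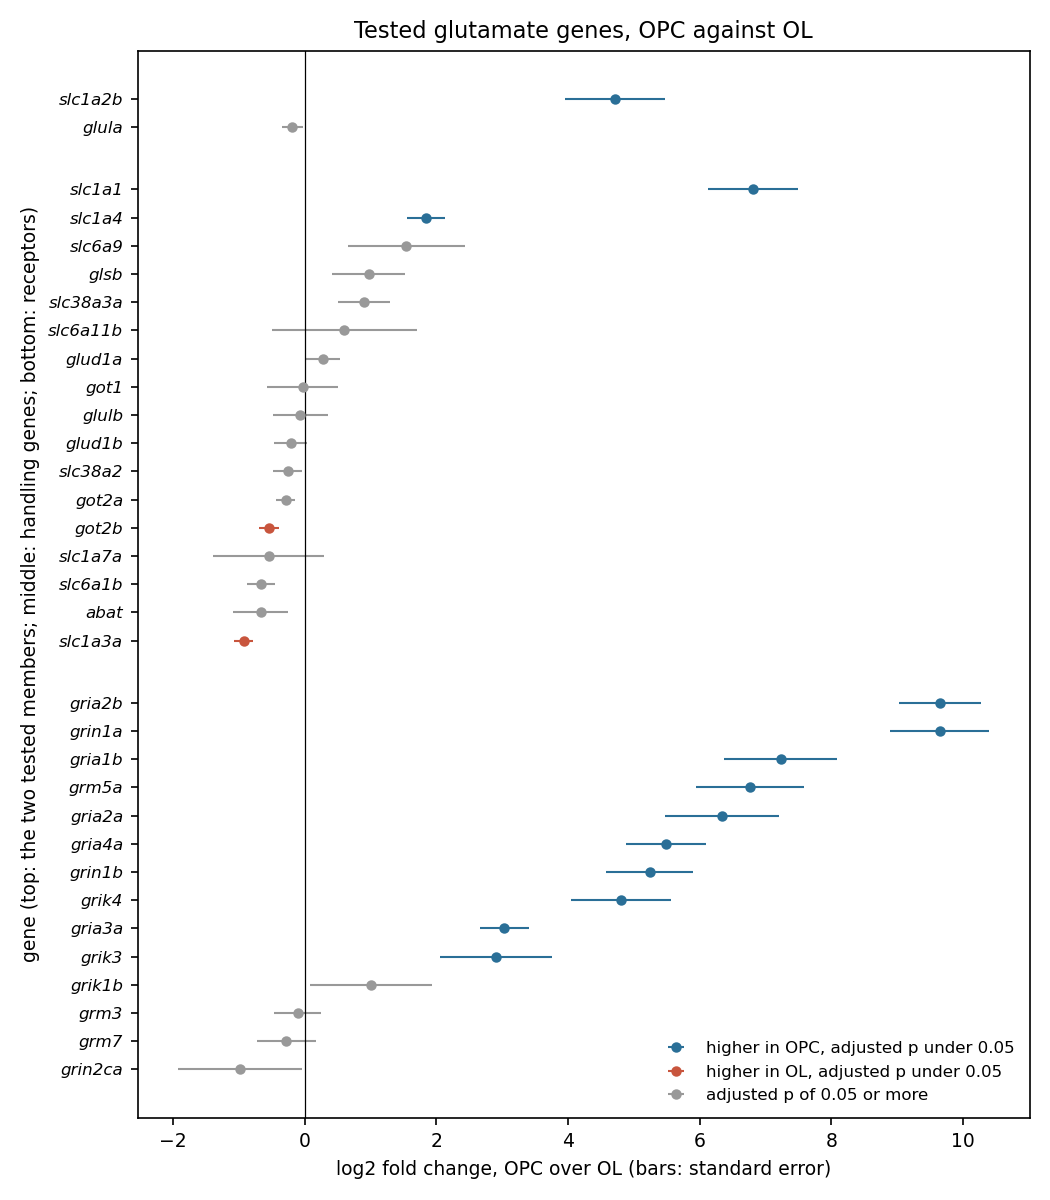
Log2 fold change of OPCs over OLs with its standard error, from edgeR's quasi-likelihood fit, for *glula* and *slc1a2b* (top), the 17 tested handling genes (middle) and the 14 tested receptor genes (bottom). Blue and red points have an adjusted p under 0.05 and grey points do not; *slc1a2b* lies at 4.72 and *glula* at -0.19, and fitted values of receptor genes with at most 4 reads in an OL library depend on the model's handling of counts near 0.

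Astroglia pair glutamate uptake with potassium, sodium and water balance. The list read here held 11 genes, among them *aldoca*, which encodes aldolase C and is no gene of ion or water balance. Of the 11 genes, 7 were tested, 3 were higher in OPCs and 0 in OLs, beside 8.97% and 2.97% of all tested features. A gene with few reads in OLs, as *gja1b* below, could pass the filter through the OPC libraries alone, so this count is a description. *gja1b*, the connexin 43 gene, averaged 799 ± 658 normalized counts over OPCs and 11.6 ± 22.4 over OLs (SD, n = 5; log2 fold change 6.11, adjusted p = 0.00131, edgeR). OL5 held 55 reads of it and the other OL libraries 0 to 3, and the log2 fold change was 8.88 without OL5, 5.50 without OPC2, 6.93 with a replicate block and 7.79 with limma voom. The sodium pump genes *atp1a1b* and *atp1b2a* had log2 fold changes of 3.28 (adjusted p = 0.00347) and 2.32 (adjusted p = 0.00257, both edgeR), and that of *atp1a1b* was 3.95 without OL5. The potassium channel gene *kcnj10a* and the bicarbonate transporter gene *slc4a4a* overlapped between the populations, with log2 fold changes of -0.67 (adjusted p = 0.341) and -0.17 (adjusted p = 0.557, both edgeR), and the water channel gene *aqp4* had 0 reads in every library.

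Marker genes of other cells that the gates could hold were read beside these results. The summed normalized counts of 10 radial glia genes were 14012 to 34104 in OPCs and 7138 to 12968 in OLs. The radial glia list also held the connexin gene *gja1b* under another name that was not matched, so the sum leaves it out. As given above, *gja1b* was higher in OPCs, at 799 ± 658 normalized counts against 11.6 ± 22.4 in OLs (SD, n = 5). All 10 genes were tested, and 5 (*fabp7a*, *sox2*, *her4.1*, *her4.2* and *id1*) were higher in OPCs and 0 in OLs. This stands beside 8.97% and 2.97% of all tested features. A gene with few reads in OLs could pass the filter through the OPC libraries alone, so this count is a description. The genes *vim*, *nes*, *s100b*, *sox9b* and *gfap* were not called, and *gfap* stood at 97.4 ± 70.0 in OPCs against 34.5 ± 15.2 in OLs (SD, n = 5; adjusted p = 0.111, edgeR). From OPC1 to OPC5 the radial glia sum was 19949, 28634, 21123, 34104 and 14012, beside 723, 1347, 1102, 1502 and 2422 normalized counts of *slc1a2b*. OPC1 to OPC4 thus stood in the same order in both measures, and OPC5 had the lowest radial glia sum and the most *slc1a2b*. From OL1 to OL5 it was 7138, 7605, 8118, 11810 and 12968, beside 144, 0.855, 62.6, 34.6 and 23.5 of *slc1a2b*, and the library with the most *slc1a2b*, OL1, had the lowest sum. The sum of 6 oligodendrocyte lineage genes was 17444, 20079, 19853, 21018 and 31145 from OPC1 to OPC5 and 9650, 7826, 5342, 4840 and 7736 from OL1 to OL5. In this sum all 5 OPC libraries stood in the order of their *slc1a2b* counts. Among OLs, OL1 was highest in both, but OL2, at 7826 in the sum, had the least *slc1a2b*. The sum of 13 neuronal genes, described below, was 7388, 7893, 6724, 8395 and 9642 from OPC1 to OPC5. Its order was that of *slc1a2b* except that OPC1 and OPC3 changed places. From OL1 to OL5 the neuronal sum was 6978, 7978, 6489, 7002 and 8222, highest in OL5 and not in OL1. The likeness of these orders was not tested. The part of these cells in the *slc1a2b* difference was not tested.

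The neuronal genes were divided. Of 13 neuronal genes, 7 were tested and 5 were higher in OPCs (*snap25a*, *syt1a*, *stmn2b*, *gad1b* and *gad2*), beside the 8.97% of all tested features. A neuronal gene with few reads in OLs could pass the filter through the OPC libraries alone, so this count is a description. The summed level was 6724 to 9642 in OPCs and 6489 to 8222 in OLs, and *elavl3* and *elavl4*, which lead that sum, were not called. *slc17a6a*, *slc17a6b* and *chata*, which define glutamatergic and cholinergic neurons, had at most 1.06 normalized counts in a library. Of 6 ependymal genes, the 3 tested (*foxj1a*, *foxj1b* and *rsph9*) were higher in OPCs, with sums over the 6 of 92.2 to 303 in OPCs and 2.24 to 23.1 in OLs. With so few reads in OLs these genes could pass the filter through the OPC libraries alone, so this count, too, is a description and is not set against the 8.97% of all tested features. The sums over 8 microglia and leukocyte genes overlapped, at 73.3 to 531 in OPCs and 45.2 to 516 in OLs, with 0 of 3 tested genes called. Those of endothelial genes were at most 5.60 and those of erythrocyte genes at most 23.5, with none tested. The part of these cells in the results was not tested either.

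Features with the most similar course over the 10 libraries were sought among 7408 features with a symbol and a mean of at least 100 normalized counts, by the root mean square difference in log2(normalized count + 1) after the mean of each was subtracted. Among the 5 nearest to *glula* were *chmp4ba* (0.127), *DDX27* (0.131), *NF1* (0.147) and *zgc:174888* (0.149), none of which was called between the populations. For *slc1a2b* they were *YWHAG* (1.14), *KCNN2* (1.22), *chga* (1.24), *VAV3* (1.33) and *PAPSS2* (1.33), all higher in OPCs. Features picked for a course like that of a gene tend to share its difference between the populations. These calls thus follow from the selection and are no separate result. The distance from *glula* was 0.417 to *slc1a3a*, 0.781 to *glulb* and 3.32 to *slc1a2b*, and the distance from *slc1a2b* to *slc1a1* was 1.64. *slc1a3b* was too low to be compared.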

How the data were processed

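Per the labels and the methods, full-length cDNA of 2000 FACsorted cells was amplified with 12 PCR cycles. The authors demultiplexed with bcl2fastq 2.17.1.14, aligned with GSNAP to GRCz10, assigned reads to genes of Ensembl version 81 with featureCounts 1.5.2 and deposited raw counts. Strand and multi-mapping settings are not given in the sources used here.

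OPCs and OLs were compared on the features kept by filterByExpr by the quasi-likelihood test of edgeR 4.0.16 (R 4.3.3), with size factors from DESeq2 1.42.0, Benjamini-Hochberg adjustment over all tested features and a threshold of 0.05. P-values measure the spread between libraries that the labels call replicates, and whether each came from separate fish is not given there. The floor of 3 reads covers counting error only. Ratios within libraries were compared in Python 3.11.15 with exact permutation tests. Alternatives were other scalings, filters, tests (DESeq2's Wald test, limma 3.58.1), a replicate block, a threshold of 0.01, other pseudocounts and each library left out. The fits were tested on simulated data.

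The table gives Ensembl identifiers. Of 31388 features, 25925 had a symbol in the gene table used for names. The genes described and those of the lists were matched to features by exact symbol where possible. Otherwise the family symbol was used, with the chromosome that RefSeq tables of another assembly (GRCz12tu) give for the zebrafish gene. Coordinates are those of the deposited table. The genes described and the lists were chosen with earlier results of these data known. In each list up to 8 genes called, by largest change, and up to 2 others, by level, were named, and up to 3 markers of each cell type by level, and other genes named were chosen after their values were seen. The 5 features most like a gene in course were named too, except 1 that is not reported here. All pairs of libraries of one population differed by more than sampling noise (chi-square per degree of freedom at least 28.6).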

Additional observations from a re-analysis of the deposited data

Results flagged for a closer look

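OL5 stood apart from the other OL libraries for *slc1a3b*, with 7.51 normalized counts (8 reads) where the other OL libraries had 0. Of the 13 sets of 5 libraries searched for a single distant library, 1 held one, and 0.65 would by chance. Where all other libraries of a set are at 0, any reads in the remaining library meet the rule. The 0.65 does not allow for such zeros, so no conclusion is drawn from the flag. At this count the value concerns 8 reads of a gene that overlaps another feature.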

How the results depend on the processing

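*slc1a2b* stayed higher in OPCs with an adjusted p of 7.27e-07 to 0.00515 and a log2 fold change of 4.40 to 5.85 in the 19 alternatives that tested it (edgeR, DESeq2 or limma), 4.40 to 5.56 with a library left out, and requiring 10 counts in every library removed it. For *glula* the adjusted p was 0.210 to 0.864 in 20 alternatives, its log2 fold change was -0.30 to -0.13 with a library left out, and it turned to 0.12 with library size alone. The alternatives planned for the fold change of *slc1a3b* gave no comparison with a tested value, and without a filter edgeR's adjusted p was 0.531.

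Library size alone also reversed *glulb* (0.21), *grm7* (0.08), *slc38a2* (0.06) and *slc4a4a* (0.13). *glulb* reversed further with limma voom (0.16), with the total of features under 1% of the counts (0.05), and without OPC1 (0.14), OPC2 (0.05), OPC5 (0.14) or OL4 (0.03), and ranged from -0.38 to 0.14 with a library left out. Of 390 values of 20 other named genes, 370 kept direction and call, 10 lost the call, all of *got2b*, and 10 reversed, and none of the genes that reversed was called. The cause was not tested.

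With that requirement, which removes genes missing from one population, 2 handling genes, 1 receptor gene and 472 features were called in place of 4, 10 and 1468. Without a filter 20 receptor genes and 2336 features were called, and 875 features at an adjusted p under 0.01. With a library left out, 3 to 5 handling genes, 9 to 17 receptor genes, 3 ion and water balance genes and 1283 to 1784 features were called. The difference in the log2 ratio was then -6.49 to -4.75 for *glula* to *slc1a2b* and 4.86 to 6.63 for *slc1a2b* to *slc1a3b*. For *glula* to *slc1a3b* it was -1.14 to 0.13, with the sign turning without OPC2 (0.11), OPC4 (0.08), OL1 (0.13), OL2 (0.11) or OL4 (0.01), where the denominator is at or near 0 reads. DESeq2's Wald test called 602 features higher in OLs and limma voom 658, against 365.

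With the replicate number as a block, the log2 fold change was 5.25 for *slc1a2b* (adjusted p = 0.00515) and -0.18 for *glula* (adjusted p = 0.558, both edgeR), and 1410 features were called. For the ratios of -5.89 and 5.70 the blocked exact sign-flip permutation test gave an adjusted p of 0.0938, since 5 pairs cannot go below a p of 0.0625. Same-numbered libraries correlated at 0.024 to 0.105 in their deviations, and 8 of 10 correlated best with their own number, a hint from the data only. The total of features under 1% of the counts and robust dispersions were chosen after seeing the data. Counts of *slc1a3b*, and of *slc1a2b* in OL2, were so low that single reads decide the value.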
